A study of Mus musculus with 16 samples.

Results

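Antibodies are built from paired heavy and light chains, and the genes for these chains lie in separate loci for heavy, kappa and lambda chains. Each locus holds many variable segments, of which 1 is joined by DNA recombination in a given B cell, and a few constant regions that set the class of the antibody, such as IgM, IgG or IgE. Plasma cells, which develop from B cells, fill much of their messenger RNA with these transcripts. Here the immunoglobulin genes were read in macrophages sorted from mouse pancreas. Genes were taken as immunoglobulin genes when their name on the array began with Igh, Igk or Igl, or when the array file placed a transcript described as immunoglobulin between the genes that flank a locus. This gave 172 of 31044 genes on the array, 9 by name and 163 by position and description, read by 185 probes. Not counted were 27 further transcript probes in the loci, many with no description, and 13 other immunoglobulin probes. Some of the 27 were further probes of genes that were counted. Ighmbp2 and Igll1 are not chain segments and were left out, as was Iglon5, a cell adhesion gene whose name starts with the same letters.

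The study compared macrophages by tissue and by origin. Cre recombinase driven by FLT3, a gene active in blood progenitors, switched on a YFP reporter (FLT3-CRE/LSL-YFP), so that YFP+ marks descent from cells with a history of Flt3 activity, which include the precursors of B cells. The tumor samples came from pancreatic tumor tissue and the other samples from normal pancreas, and each was sorted by flow cytometry into YFP+ and YFP- macrophages. There were 5 samples of each population from tumors and 3 of each from normal pancreas, all from female C57/B6 mice 8 to 10 weeks old. The labels leave the genotype of each sample open: one field speaks of implanted tumors, and the series text names wild-type, KPC and FLT3-CRE/LSL-YFP mice. The number in each sample title was taken to be the mouse, which the labels do not state, so that 5 tumor mice and 3 mice with normal pancreas would each have given both populations.

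Each sample was read on 1 array with 1 colour. Levels below are log2 processed signals minus the 75th percentile of the array, so that 0 stands for that percentile, and a difference of 1 is a doubling. Between 64.9% and 75.4% of the spots of an array stood well above background, and none was saturated. All 18 macrophage genes of a list that included Csf1r, Adgre1 (F4/80), Cd68 and Itgam were above background on 16 of 16 arrays, and Csf1r had means of 5.55 and 5.45 in the YFP+ and YFP- tumor groups and of 5.93 and 6.22 in the matching normal groups. None of the 18 passed the test between YFP+ and YFP- in either tissue, where 2.39% of all genes tested were called in tumors and 0.0206% in normal pancreas. Between tissues 4 were lower in tumor than in normal YFP+ macrophages, among them Cd163, which fell by 3.06, and in YFP- macrophages 3 were lower and Cd14 was higher. Over all genes tested 6.48% were lower in the YFP+ comparison, and in the YFP- comparison 8.51% were lower and 7.6% higher. Of the 172 immunoglobulin genes, 9 had a value missing on 1 array and stayed out of the tests. Of the remaining 163, 161 were above background on at least 3 arrays and were tested, 2 kappa variable genes were above background on none, and 84 were above background on all 16. The 161 comprised 9 heavy constant, 75 heavy variable, 1 kappa constant, 72 kappa variable, 2 lambda constant and 2 lambda variable genes. In sorted bulk samples, fewer cells of a type and less RNA per cell cannot be told apart.

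The probes are 60 bases long and are shown for the genes that the results turn on, 5′ to 3′, with the longest run shared with a probe of another immunoglobulin gene in capitals. Positions are the array file's, on mouse build mm9. On the minus strand of chromosome 12, within the heavy chain locus, lie the constant region probe nearest to Tmem121 (chr12:114496985-114497044), those described as gamma 2b (chr12:114544738-114544797), gamma 3 (chr12:114597942-114598001) and the heavy chain of IgM (chr12:114659630-114659689). The kappa constant probe is the one nearest to Rpia (chr6:70676692-70676751, plus strand), and the lambda probe is named Iglv1 in the file and is counted with the constant regions by its position (chr16:19061905-19061964, minus strand).
Heavy constant nearest Tmem121: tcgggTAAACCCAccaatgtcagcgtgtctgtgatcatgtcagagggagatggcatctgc
Gamma 2b: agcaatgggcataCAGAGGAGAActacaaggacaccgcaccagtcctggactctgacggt
Gamma 3: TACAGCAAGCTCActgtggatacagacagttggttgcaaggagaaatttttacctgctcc
IgM: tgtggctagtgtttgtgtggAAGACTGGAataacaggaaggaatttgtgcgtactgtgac
Kappa constant: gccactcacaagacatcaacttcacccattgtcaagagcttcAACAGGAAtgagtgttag
Iglv1: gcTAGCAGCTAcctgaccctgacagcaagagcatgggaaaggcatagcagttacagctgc

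These 6 constant probes shared runs of only 8 to 13 bases with any other probe of the set. Variable segments are alike by descent, and their probes are too. Of 75 heavy variable probes, 23 were identical to another immunoglobulin probe at 48 or more of 60 bases, and of 74 kappa variable probes 15 were. In addition, 33 of the heavy and 17 of the kappa variable probes listed more than 1 transcript in the array file. The first 3 probes below belong to variable genes whose values are given later. ENSMUST00000192499 is at chr12:115461107-115461166 on the minus strand and ENSMUST00000103390 at chr6:70306191-70306250 on the plus strand, while Igkv4-72 has no position in the file and shares 22 bases in a row with another probe of the set. The last 2 probes, at chr12:114826478-114826537 and chr12:114923693-114923752 on the minus strand, show how close a pair can be: 57 of 60 bases were identical.
ENSMUST00000192499: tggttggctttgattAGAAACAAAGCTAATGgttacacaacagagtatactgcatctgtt
ENSMUST00000103390: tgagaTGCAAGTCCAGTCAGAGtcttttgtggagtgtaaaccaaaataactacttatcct
Igkv4-72: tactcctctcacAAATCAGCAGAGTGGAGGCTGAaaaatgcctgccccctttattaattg
Heavy variable pair, first probe: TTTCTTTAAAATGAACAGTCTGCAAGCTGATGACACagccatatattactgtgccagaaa
Heavy variable pair, second probe: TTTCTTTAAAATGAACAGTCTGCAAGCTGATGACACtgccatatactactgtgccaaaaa

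In tumors, immunoglobulin transcripts were higher in YFP+ than in YFP- macrophages across the heavy, kappa and lambda loci. With limma and Benjamini-Hochberg adjustment over all 24275 genes tested, 80 of the 161 rose in tumor YFP+ and 0 fell, where 0.758% of all genes tested were called higher and 2.39% were called in either direction. They were 80 of the 184 genes called higher in the whole comparison. Some members passed the filter of 3 arrays only through tumor YFP+, the group found high, so the count is not independent of the filter. With a filter of 8 arrays above background, 73 of 152 members rose and 0 fell, where 470 of 22121 genes were called in either direction. The median difference of the 161 was 3.06 on the log2 scale, against 0.01 over all genes tested, and 160 of 161 differences were above 0. In 112 of 161 the 5 tumor YFP+ samples all lay above the 5 tumor YFP- samples, and 4.39% of all genes had groups that did not overlap. Between the 2 tumor populations compared on the same slide, the median member difference was 2.19, 3.82, 2.76 and 3.55 on the 4 slides. Each slide held only 1 or 2 samples of each tumor population, mostly from different mice. The count of 80 depended on the mice included: it was 41, 53, 36, 46 and 46 without mouse 23547, 23548, 23550, 23551 or 23677, and 50, 49 and 53 without the tumor YFP+ sample of 23550, 23551 or 23677. The median difference stayed between 2.96 and 3.32 when any 1 mouse or sample was left out.

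**Figure D1:**
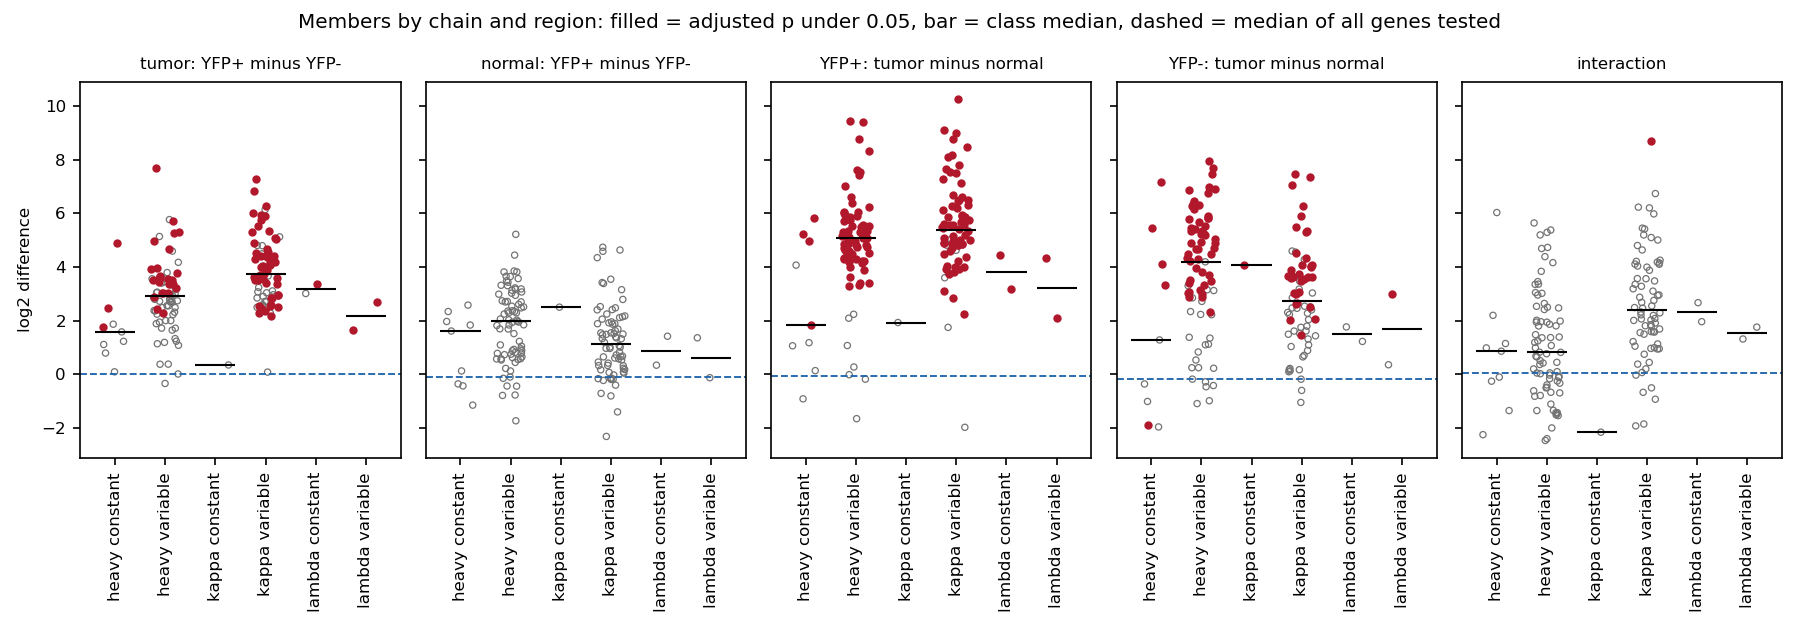
Log2 difference of each tested immunoglobulin gene in the 5 contrasts, by chain and by constant or variable class; each point is 1 gene, filled where its adjusted p was under 0.05, each bar is the median of a class and the dashed line that of all genes tested. In the tumor YFP+ minus tumor YFP- panel 160 of 161 points lie above 0, and the medians of the heavy and kappa variable genes are 2.94 and 3.72.

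Among heavy constant regions, which set antibody class, 3 of 9 rose in tumor YFP+ over tumor YFP- and 0 fell, with a median difference of 1.58. The gamma 2b region, an IgG subclass, read 5.25, 4.81, 6.09, 5.59 and 5.95 in the 5 tumor YFP+ samples and 0.96, 3.96, 3.72, 3.41 and 3.25 in tumor YFP-. It read -1.21, 2.15 and 0.75 in normal YFP+ and -0.61, -1.28 and -1.26 in normal YFP-. The tumor groups did not overlap, and 1 tumor YFP- sample was far below the other 4. The difference was 2.48 (SE 0.61, 5.57-fold, adjusted p = 0.0454 by limma). This call was close to the threshold and was lost in 23 of 34 alternative settings, without mouse 23547, 23548, 23550, 23551 or 23677 among them.

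The gamma 3 region, another IgG subclass, was above background in all 5 tumor YFP+ samples and in 1 tumor YFP- sample. It read -2.04, -0.31, 0.00, 0.50 and 1.27 in tumor YFP+ and -5.15, -6.20, -6.38, -6.23 and -1.03 in tumor YFP-. The sample of mouse 23677 was the exception in tumor YFP- and overlapped the YFP+ range. With 4 of 5 tumor YFP- readings below background, the fitted difference of 4.88 (SE 1.17, adjusted p = 0.0405 by limma) has no firm size: it was 2.29 with normexp background correction. It lost its call in 18 of 34 alternatives, without mouse 23547, 23548, 23550 or 23551 among them. In normal pancreas its group means were -4.19 ± 1.63 and -3.04 ± 2.92 (SD, n = 3 each) in YFP+ and YFP-.

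A region between those described as IgE and IgG2a had the smallest spread of the 3 that rose. It read -0.18, -0.53, -0.07, -0.12 and -0.27 in tumor YFP+ against -1.74, -2.31, -2.11, -2.87 and -1.0 in tumor YFP-, so that the groups did not overlap. The difference was 1.77 (SE 0.32, 3.41-fold, adjusted p = 0.00624 by limma), and without mouse 23550 it was 1.70 and no longer past the threshold. With normexp background correction it was 1.11. Its normal means of -2.08 ± 0.68 and -1.65 ± 0.43 (SD, n = 3 each) lay near the tumor YFP- mean of -2.0 ± 0.69 (SD, n = 5).

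The other 6 heavy constant regions did not pass the test between the tumor populations. The region nearest to Tmem121 read 6.41 to 6.53 in tumor YFP+ and 6.19 to 6.75 in tumor YFP-, a difference of 0.09 (SE 0.67, adjusted p = 0.982 by limma). IgM, the first class a B cell makes, had means of 2.05 ± 0.91 and 0.94 ± 0.79 (SD, n = 5 each), a difference of 1.11 (SE 0.45, adjusted p = 0.356). The delta chain region, which is made with IgM on naive B cells, had 1.53 ± 0.67 and 0.74 ± 0.59 (SD, n = 5 each). IgG2a, named so through the description of a probe that also lists the gamma 2b transcript, differed by 1.58 with no overlap between the groups (SE 0.64, adjusted p = 0.374 by limma). Of the 9 heavy constant probes tested, 2 list more than 1 Ensembl transcript. They are that of IgM, with 2, and that of the region between gamma 2b and gamma 3. The region between gamma 2b and gamma 3 differed by 1.23 (SE 0.64, adjusted p = 0.568 by limma), and its probe also lists the transcripts of IgG2a and of the region beside it, so its reading can include theirs. IgE differed by 1.87 (SE 1.09, adjusted p = 0.641) and was above background on 7 of 16 arrays. A further probe in the constant part, named Igh-VJ558 (chr12:114498348-114498407), had a value missing in 1 tumor YFP+ sample and was fitted apart, with means of 5.65 and 4.39 in the tumor groups and 2.17 and -1.95 in the normal ones. Its tumor difference was 1.27 (SE 1.17, adjusted p = 0.817 by limma).

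**Figure D2:**
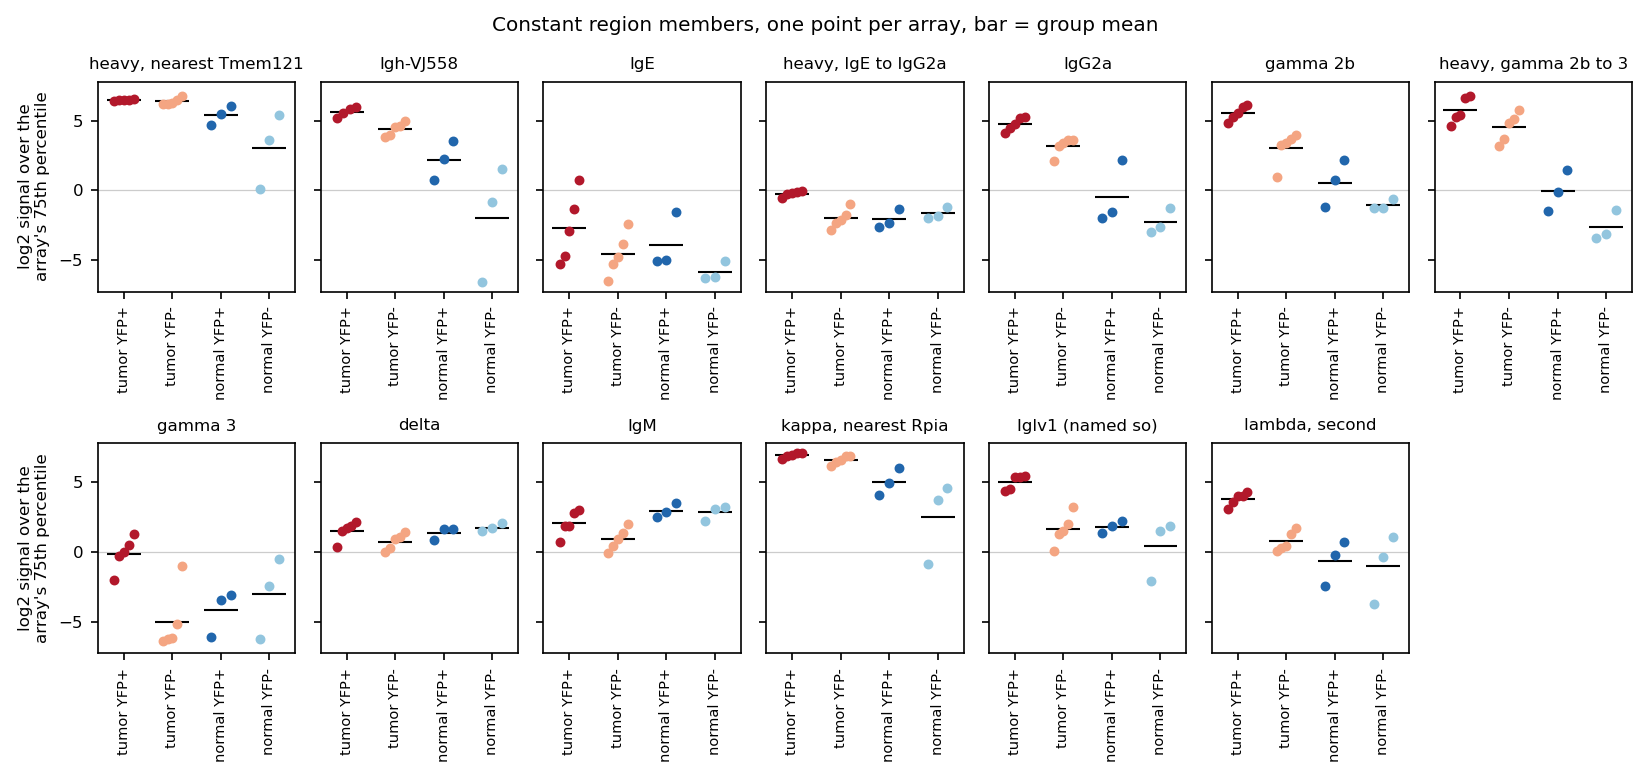
Level of each constant region gene in each of the 16 samples, as log2 signal relative to the array's 75th percentile, by group; points are samples and bars group means, and Igh-VJ558 is shown although it was left out of the main test. The region nearest Tmem121 and the kappa constant region are high in both tumor groups, with means of 6.48 and 6.38 and of 6.94 and 6.59, while gamma 2b and Iglv1 separate them.

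Heavy variable segments, which form the antigen-binding end of the heavy chain, had 25 of 75 members higher in tumor YFP+ than in tumor YFP- and 0 lower, with a median of 2.94. One of these was ENSMUST00000192499, which read 1.50, -0.04, 2.22, 1.42 and 2.08 in tumor YFP+ and -6.78, -4.76, -6.68, -6.38 and -6.60 in tumor YFP-. It was not well above background in any tumor YFP- sample, so tumor YFP+ was at least 59.5-fold higher, where the bound sets the bright group's mean against, on each dim array, the lowest signal well above background or the probe's own, whichever was higher (adjusted p = 0.00119 by limma). In normal pancreas it was above background in only 1 sample, normal YFP+ of mouse 23916, at 0.47. It thus passed the filter of 3 arrays only through tumor YFP+, the group found high, so its p-value and bound are not independent of the filter. Ighv1-33 read 5.45 to 6.52 in tumor YFP+ and 2.31 to 4.36 in tumor YFP-, a difference of 2.49 that did not pass (SE 0.63, adjusted p = 0.0556). Igh-V3660 was the only member with a difference below 0, at -0.34 (SE 0.44, adjusted p = 0.886 by limma), and its probe has no position in the file.

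The near-identical heavy variable pair printed above gave near-identical readings. The first probe had means of 5.14 and 1.55 in the YFP+ and YFP- tumor groups and of 0.27 and -2.68 in the normal groups, and the second had 4.74 and 1.20, then 0.16 and -2.13. Their tumor differences were 3.60 (SE 0.97, adjusted p = 0.0777 by limma) and 3.54 (SE 0.86, adjusted p = 0.0422). Whether such probes read separate genes is uncertain. Over all heavy variable genes the median tumor difference was 2.94 for the 23 with a near-identical probe and 2.96 for the other 52, and over kappa it was 3.08 for 15 and 4.01 for 57.

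For kappa, the main light chain of mouse antibodies, the constant region and the variable segments differed in pattern. The constant region read 6.67, 6.91, 6.92, 7.13 and 7.08 in tumor YFP+ and 6.14, 6.45, 6.86, 6.91 and 6.61 in tumor YFP-. The ranges overlapped, and the difference of 0.35 did not pass (SE 0.75, adjusted p = 0.937 by limma). Of the 72 kappa variable segments, 49 rose and 0 fell, with a median of 3.72. The difference between the constant region and the segments was not tested.

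ENSMUST00000103390 was among the kappa segments that rose. It read 1.84, 2.37, 1.22, 2.51 and -1.25 in tumor YFP+ and -5.43, -6.44, -6.75, -6.57 and -4.58 in tumor YFP-, where it was below background throughout, so tumor YFP+ was at least 55.6-fold higher (adjusted p = 5.08e-05 by limma). ENSMUST00000103390 passed the filter of 3 arrays through tumor YFP+, the group found high, so its p-value and bound are not independent of the filter. Igkv4-72 was measured above background in all 16 samples. It read 4.02, 2.17, 4.36, 4.54 and 3.77 in tumor YFP+ against -1.33, -2.49, -0.26, -2.83 and 0.59 in tumor YFP-. With no overlap, its difference was 5.04 (SE 0.61, 32.8-fold, adjusted p = 0.000444 by limma).

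Igkv4-53 differed by 4.08 (SE 0.73, adjusted p = 0.00561 by limma), from a mean of 0.91 ± 0.69 in tumor YFP+ to -3.18 ± 1.70 in tumor YFP- (SD, n = 5 each). Its probe was above background on 10 of 16 arrays. A second probe of the gene was above background on 0 arrays and differed by -0.36. Igkv6-20 ranged from 1.13 to 2.43 in tumor YFP+ and from -6.66 to 0.68 in tumor YFP-. Its difference of 5.13 did not pass (SE 1.36, adjusted p = 0.0713 by limma), and the SD in tumor YFP- was 3.22.

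Lambda, the minor light chain of mice, had 3 of 4 genes higher in tumor YFP+. Iglv1 read 4.53, 4.36, 5.38, 5.46 and 5.35 in tumor YFP+ and 3.24, 1.53, 2.03, 0.09 and 1.28 in tumor YFP-. With no overlap, the difference was 3.38 (SE 0.68, 10.4-fold, adjusted p = 0.0130 by limma), and it was no longer past the threshold without mouse 23550, 23551 or 23677, at 3.39, 2.89 and 3.21. The other constant region differed by 3.01 and just missed the threshold (SE 0.76, adjusted p = 0.0537 by limma). The variable segments at chr16:19085111-19085170 and chr16:19241304-19241363 differed by 2.68 and 1.64 (SE 0.64 and 0.39, adjusted p = 0.0388 and 0.0389), and these calls were lost in 21 and 18 of 34 alternatives, without mouse 23547, 23548, 23550 or 23677 in both and without mouse 23551 in the first.

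**Figure D3:**
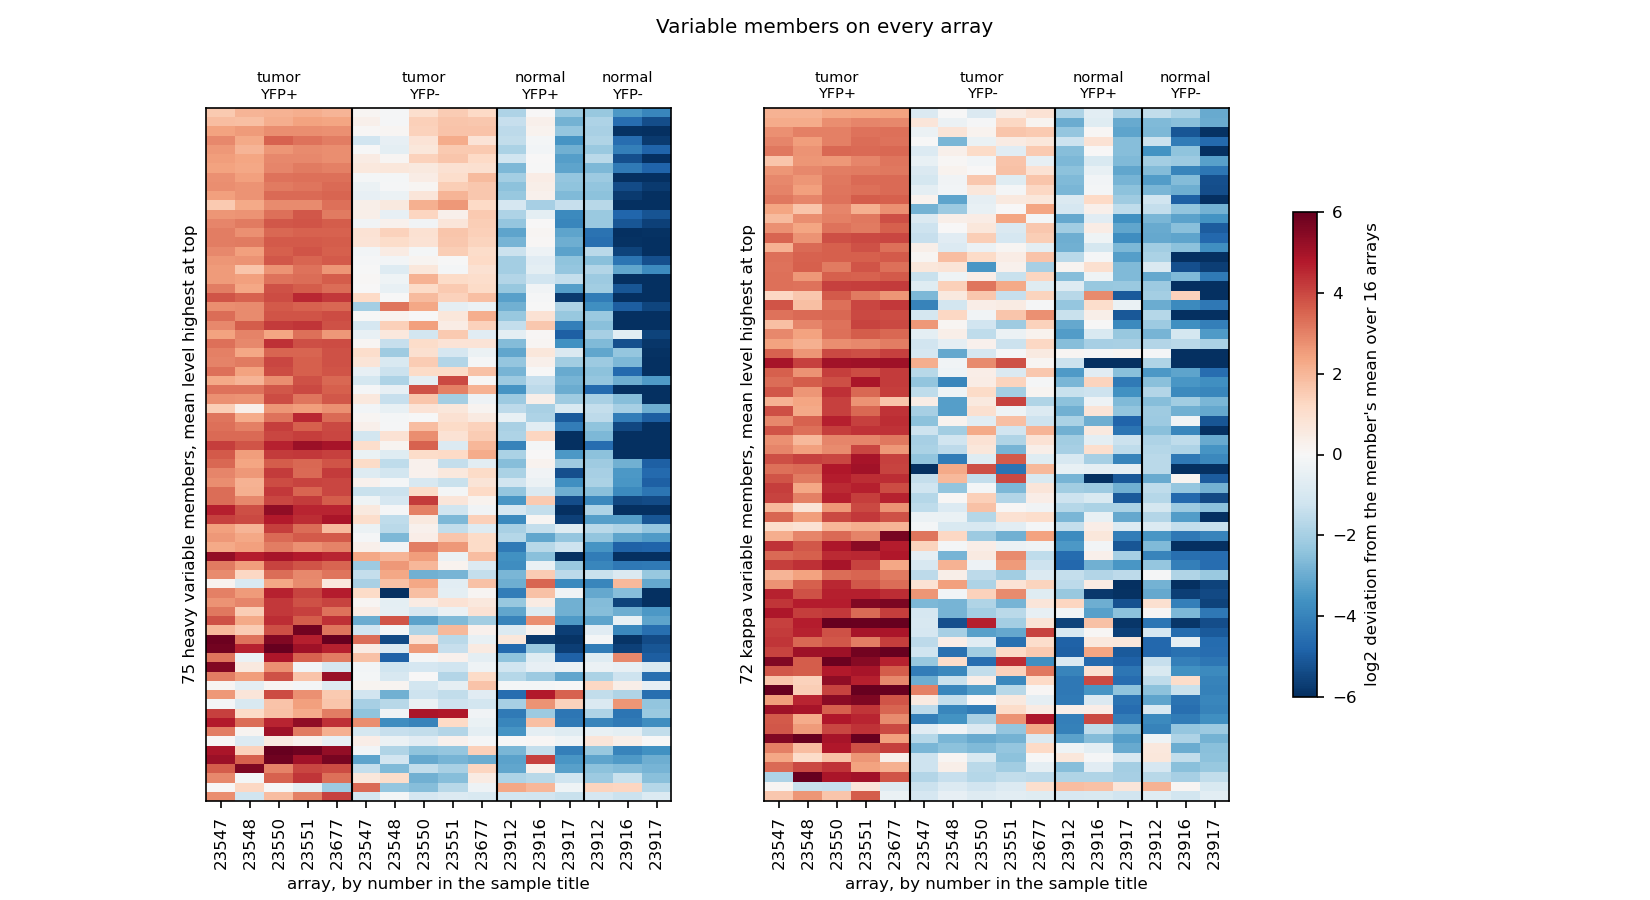
Heat map of the 75 heavy and 72 kappa variable genes on every array; colour is the log2 deviation from the gene's own mean over 16 arrays, rows run from the highest mean level at the top to the lowest, and columns are samples by group. The 5 tumor YFP+ columns are red (above the gene's mean) over nearly all rows, tumor YFP- columns are mixed, and normal YFP- of 23917 is blue over most.

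By class, 4 of 12 constant genes and 76 of 149 variable genes rose in tumor YFP+, with medians of 1.68 and 3.23. Classes differed in how bright their probes were, and the size of the tumor YFP difference was smaller in brighter sets, where brightness is a mean over all arrays that the difference itself helps to set. Among heavy variable genes the median tumor difference was 3.56 for the 25 dimmest, 3.18 for the 25 between and 2.42 for the 25 brightest by mean level over all arrays. Among kappa variable genes it was 4.96, 4.01 and 2.88 in 3 sets of 24. Between tumor and normal YFP- macrophages the order was the opposite, from dimmest to brightest 1.35, 4.23 and 5.33 for heavy and 1.48, 2.84 and 3.52 for kappa. The kappa constant region and the region nearest to Tmem121 were bright in both tumor groups but not in every normal sample. On the tumor arrays the highest member stood at 6.19 to 7.13 and the highest probe at 7.58 to 8.24. On the normal arrays these were 3.05 to 6.04 and 7.61 to 8.30. No spot was saturated. The part of brightness in the gap between constant and variable genes was not tested. With the genes of a locus divided into 3 sets along the chromosome, the medians were 3.05, 2.77 and 2.94 for heavy and 3.98, 3.75 and 3.72 for kappa.

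In normal pancreas no immunoglobulin gene passed the test between YFP+ and YFP- macrophages. By limma 0 of 161 were called, with 0.0206% of all genes tested called (0.00824% higher and 0.0124% lower), and 52 had an unadjusted p under 0.05. The median difference was 1.50, against -0.11 over all genes, and 138 of 161 were above 0. In 12 the 3 YFP+ samples all lay above or all below the 3 YFP- samples, while 13.3% of all genes had groups that did not overlap. The median was 1.98 for heavy and 1.13 for kappa variable genes. Samples within each normal group were far apart: on slide 2 the median YFP+ minus YFP- difference was 2.53 and on slide 3 it was -0.58. Each of these values sets 1 sample against 1 sample of another mouse. Without normal YFP- of mouse 23912, 24 genes were called higher, and without both samples of this mouse 19 were, while without its YFP+ sample 1 was. Calls over all 24275 genes moved too, from 5 to 336, 223 and 6 in the same fits. Without mouse 23916, its YFP+ sample alone or the YFP- sample of mouse 23917, the median was 0.71, 0.79 and 0.92.

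Tumor YFP+ macrophages had more immunoglobulin signal than normal YFP+ macrophages. Of 161 genes, 140 rose and 0 fell by limma, where 5.79% of all genes were called higher and 12.3% in either direction, and the median difference was 5.03 against -0.07 over all genes. In 141 of 161 the groups did not overlap, as in 22.2% of all genes. Members that passed the filter of 3 arrays only through tumor YFP+ are among these too. With a filter of 8 arrays above background, 133 of 152 members rose and 0 fell, where 2932 of 22121 genes were called in either direction. A lower call, for 1 gene, appeared without tumor YFP+ of 23551, tumor YFP- of 23677 or normal YFP- of 23912. Heavy variable genes rose in 67 of 75 (median 5.08), kappa variable genes in 65 of 72 (median 5.37) and lambda genes in 4 of 4. Gamma 2b rose by 4.98 (SE 0.70, 31.5-fold, adjusted p = 0.000276) and IgG2a by 5.21 (SE 0.74, adjusted p = 0.000313). IgM went the other way without passing, at -0.91 (SE 0.51, adjusted p = 0.314 by limma), and the delta region differed by 0.14 (SE 0.39, adjusted p = 0.897). A kappa segment at chr6:69714517-69714576 read 5.92, 5.10, 6.02, 6.06 and 6.09 in tumor YFP+ and -0.29, -5.88 and -7.15 in normal YFP+, where only 1 of 3 samples was above background.

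In YFP- macrophages the tumor samples were also higher, and IgM was lower. Of 161 genes, 90 rose and 1 fell in tumor YFP- against normal YFP-, where 7.6% of all genes were called higher, 8.51% lower and 16.1% in either direction, with a median of 3.30 against -0.19 over all genes. In 86 of 161 the groups did not overlap, as in 19.8% of all genes. Heavy variable genes rose in 51 of 75 (median 4.19) and kappa variable genes in 33 of 72 (median 2.75). The kappa constant region, which did not separate the tumor populations, rose by 4.09 (SE 0.86, 17.0-fold, adjusted p = 0.00470 by limma). It read 4.61, 3.75 and -0.84 in normal YFP-, against 6.14 or more in all 5 tumor YFP- samples, and without the sample of mouse 23917 the difference was 2.41. The region nearest to Tmem121 rose by 3.31 (SE 0.77, adjusted p = 0.00885 by limma), from 5.42, 3.65 and 0.14 in normal YFP-, and without the sample of mouse 23917 by 1.85.

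The gene that fell in tumor YFP- was IgM, whose probe lists 2 transcripts. It read -0.05, 1.38, 1.99, 0.45 and 0.91 there and 2.25, 3.20 and 3.05 in normal YFP-, with no overlap. The difference was -1.90 (SE 0.51, adjusted p = 0.0211 by limma), and without normal YFP- of mouse 23916 or 23917 it was -1.71 or -1.79 and no longer past the threshold. Leaving out tumor YFP+ of 23547 or tumor YFP- of 23677 gave 2 lower calls in this comparison. The delta region differed by -1.01 and did not pass (SE 0.39, adjusted p = 0.0959). The IgG regions did not move alike in the same comparison. Gamma 2b rose by 4.11 (SE 0.70, adjusted p = 0.00103 by limma) and IgG2a by 5.47 (SE 0.74, adjusted p = 0.000172), while gamma 3 differed by -1.96 (adjusted p = 0.342) and the region between IgE and IgG2a by -0.36 (adjusted p = 0.531). The region between gamma 2b and gamma 3 rose by 7.17 (SE 0.74, adjusted p = 1.6e-05) on its brighter probe, which other IgG regions share, and differed by 3.96 on its other probe, which lists only itself.

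Both tumor populations were compared with their own normal group, and 88 of 161 genes were higher in tumor in both, where 4.3% of all genes tested were. Of the 80 genes higher in tumor YFP+ than in tumor YFP-, 78 were also higher in tumor YFP+ than in normal YFP+ and 41 in tumor YFP- than in normal YFP-. Of the 184 genes of any kind higher in tumor YFP+ than in tumor YFP-, 148 and 61 were. These comparisons share samples, so the counts are not independent. Of the 161 genes 16 passed in none of the 5 comparisons, as did 79.3% of all genes. The test of whether the YFP difference itself differed between tumor and normal pancreas called 1 gene, ENSMUST00000103390, at 8.69 (SE 1.12, adjusted p = 0.00577 by limma), with 0.0989% of all genes called (0.0371% higher and 0.0618% lower). With the YFP+ minus YFP- difference taken within each title number, the 5 tumor and 3 normal differences did not overlap in 39 of 161 genes, as in 4.72% of all genes. ENSMUST00000103390 was below background in all tumor YFP- and normal YFP+ samples, so the size of its interaction has no firm value. Without mouse 23916 it was 9.0 and no longer past the threshold. The gene passed the filter through tumor YFP+, so this call is not independent of the filter. The median of this interaction was 2.40 for kappa and 0.82 for heavy variable genes, and it was -2.16 for the kappa constant region (SE 1.22, adjusted p = 0.890 by limma). With mouse 23547 or 23912 left out 2 genes were called, with mouse 23548 or 23677 left out 3, and single samples of mice 23547, 23548, 23677, 23916 and 23917 moved the count in the same range. Without normal YFP- of 23912 1 gene was called lower, and without mouse 23912 or normal YFP+ of 23917 the median over all 161 was 1.03 or 1.13, against 1.76 with all samples.

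**Figure D4:**
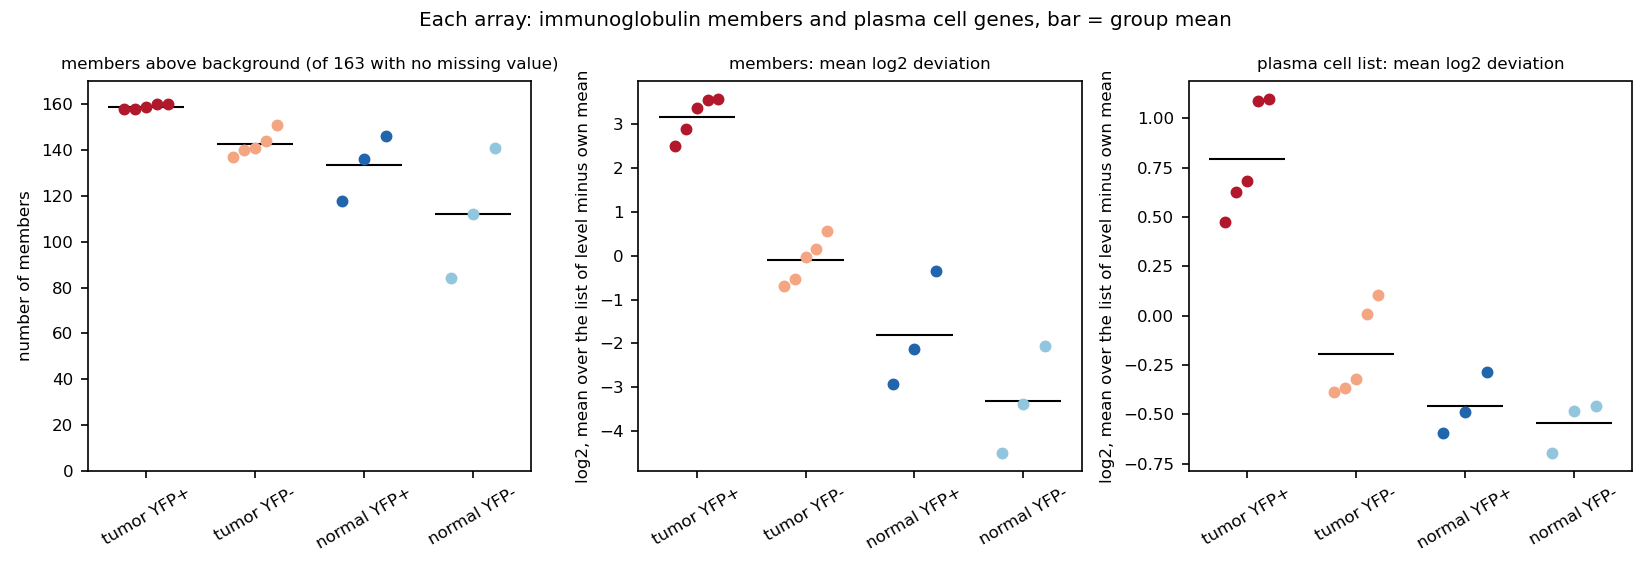
Immunoglobulin signal on each array; the panels show how many of the 163 genes with no missing value were above background, and the mean log2 deviation of the immunoglobulin genes and of the plasma cell list from their own means over 16 arrays, with bars at group means. The tumor arrays have 158 to 160 genes above background where YFP+ and 137 to 151 where YFP-, and the normal ones 118 to 146 and 84 to 141.

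Samples of the same group differed in their whole immunoglobulin signal, and the spread between mice was wider in the other 3 groups than in tumor YFP+. The mean deviation of all members from their own means over 16 arrays was 2.88, 2.49, 3.57, 3.54 and 3.37 in tumor YFP+ and -0.52, -0.68, 0.14, -0.02 and 0.56 in tumor YFP-. It was -2.12, -0.35 and -2.93 in normal YFP+ and -2.06, -3.37 and -4.50 in normal YFP-. Normal YFP+ of mouse 23916 thus came close to the tumor YFP- samples, and normal YFP- of mouse 23917 was lowest of all, with 84 of 163 genes above background.

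The median SD of the 161 genes was 0.60 and 1.22 in the YFP+ and YFP- tumor groups and 1.61 and 1.40 in the normal ones, and over all genes tested it was 0.37, 0.43, 0.31 and 0.39. An SD above 1 was found in 30, 98, 120 and 102 of 161 genes in the same order. No test of this spread was made, and readings below background add to it. In tumor YFP-, kappa variable genes had a median SD of 1.47 and heavy variable genes 1.09, whereas in tumor YFP+ these were 0.63 and 0.57.

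Single segments stood out in single mice. A heavy segment at chr12:115802849-115802908 read 3.98 in tumor YFP+ of mouse 23547 and -0.96, 1.20, -1.72 and -2.54 in the other 4. A kappa segment at chr6:68492171-68492230 read 1.57, -0.22, -0.11 and -1.37 in 4 tumor YFP+ samples, and in that of mouse 23547 it was at -6.98, below background. IgE reached 0.72 in tumor YFP+ of mouse 23550 and was at -5.28 in that of 23548. These 3 had the largest SDs in tumor YFP+, at 2.63, 3.28 and 2.46.

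In tumor YFP-, the largest SDs belonged to 3 kappa segments. The one at chr6:68654502-68654561 read -6.80, 2.49, 4.08, -4.22 and 2.15, where the tumor YFP+ samples read 3.55 to 5.24. That at chr6:70121982-70122041 read -6.88, -6.38, -4.72, -0.10 and 2.09, and that at chr6:67741446-67741505 read -4.55, -1.22, -6.88, 2.15 and -5.96. The mouse with the highest reading thus was 23550, 23677 and 23551 in turn, so the segments were not high in the same mouse. By contrast, a bright kappa segment at chr6:68102545-68102604 was even in tumor YFP+. It read 6.51, 6.52, 6.73, 6.79 and 6.85 there, against 3.53 to 5.27 in tumor YFP- (difference 2.35, SE 0.38, adjusted p = 0.00293 by limma).

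**Figure D5:**
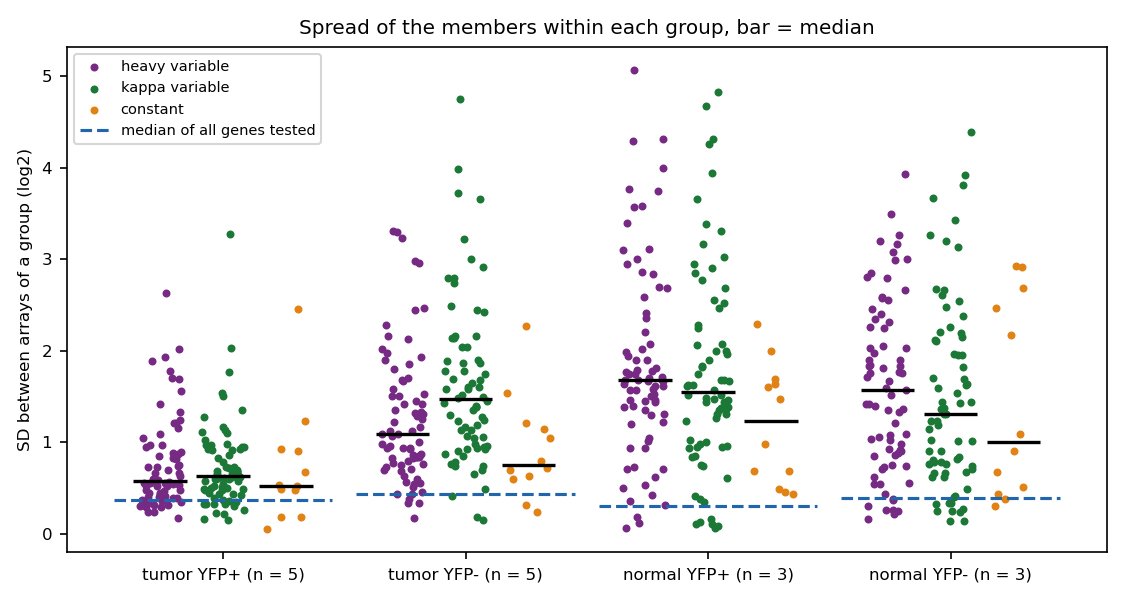
Standard deviation between samples of each immunoglobulin gene within each of the 4 groups, on the log2 scale, for heavy variable, kappa variable and constant genes; points are genes, bars medians and dashed lines the median of all genes tested. Kappa variable genes have medians of 0.63 in tumor YFP+ and 1.47 in tumor YFP-.

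Genes of the plasma cell programme and a few of the B cell list were also higher in tumor YFP+ than in tumor YFP-. Over all genes tested 0.758% were called higher and 1.63% lower in this comparison. Of 31 genes of the plasma cell list, 12 rose and 0 fell (median 0.67), among them Mzb1, a chaperone of antibody assembly, by 2.76, Tnfrsf17, the plasma cell survival receptor, by 2.79, Bhlha15, a transcription factor of secretory cells, by 3.74, and Derl3, part of protein quality control in the endoplasmic reticulum, by 1.83. Of 26 genes of the B cell list, 3 rose and 0 fell (median 0.69): Fcrla by 2.85, Pou2af1, a coactivator of immunoglobulin transcription, by 2.04, and Blnk, an adaptor of B cell receptor signalling, by 0.81. Ms4a1 (CD20), a surface protein of B cells, was above background on 8 of 16 arrays. Jchain, which links antibody multimers, had means of 4.91 and 2.48 in YFP+ and YFP- of tumors and of 0.47 and -2.96 in those of normal pancreas, and its tumor difference of 2.43 did not pass (SE 0.84, adjusted p = 0.230). The mean level of the plasma cell list ran from 1.50 to 2.12 over the tumor YFP+ samples and from 0.64 to 1.13 over the tumor YFP- samples, and in normal pancreas from 0.43 to 0.74 (YFP+) and 0.33 to 0.57 (YFP-). That of the B cell list ran from -0.84 to -0.06 and from -1.59 to -0.76 in tumors, and from -1.63 to -1.05 and -1.96 to -0.92 in normal pancreas. The part of such cells in the immunoglobulin result was not tested.

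Genes of the machinery that rearranges or edits antibody genes were compared in the same way. Of 18 tested genes for V(D)J recombination, class switch and the surrogate light chain, 0 rose and 0 fell between the tumor populations by limma (median -0.09). The shares over all genes tested were 0.758% and 1.63%, so 0 calls among 18 genes is close to those shares and says little about this list. Of 11 tested Fc and immunoglobulin receptor genes, 1 fell: Fcer1a, the IgE receptor subunit of mast cells and basophils, by 5.76. None of 12 tested T cell genes passed, and of 13 dendritic cell genes Ly6d rose, by 1.45. Of 12 fibroblast genes 11 were lower in tumor YFP+, with a mean list level of -2.82 to -2.06 there and 1.05 to 1.73 in tumor YFP-, and of 17 acinar genes, the products of enzyme-secreting cells, 8 were lower. The part of these cells in the immunoglobulin result was not tested. In normal pancreas no gene of these lists passed between YFP+ and YFP-, where 0.0206% of all genes tested were called.

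Against normal YFP+, tumor YFP+ had 18 of 31 plasma cell genes higher and 0 lower (median 1.08), and 5 of 26 B cell genes higher and 3 lower. Over all genes tested 5.79% were called higher and 6.48% lower between the YFP+ groups. Mzb1 rose by 4.59 (SE 0.47), Jchain by 4.44 (SE 0.97) and Cd79a, the signalling partner of membrane immunoglobulin, by 4.94 (SE 1.26). Of the 3 lower B cell genes Blnk fell least, at -0.87. In tumor YFP- against normal YFP-, 9 plasma cell genes rose and 5 fell, with Jchain higher by 5.44 (SE 0.97) and Tnfrsf17 lower by 3.79. Of the B cell genes 3 rose and 3 fell, Blnk among the latter at -1.49. Over all genes tested 7.6% were called higher and 8.51% lower between the YFP- groups. Of 13 dendritic cell genes 4 were higher and 2 lower in tumor than in normal YFP+. The integrin gene Itgae was higher by 5.58 and Clec9a, a receptor of cross-presenting dendritic cells, by 2.92. The 2 lower were Cd209a, at -2.30, and Batf3, at -1.34. In YFP- 2 were higher and 1, Batf3, was lower, at -0.85. All 17 acinar genes were lower in tumor than in normal in both populations, and their mean level was 4.64 to 6.22 in the normal samples and -2.64 to -0.48 in the tumor samples. The part of these cells in the tissue comparisons was not tested.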

How the data were processed

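RNA of 16 sorted samples was read on single-colour Cy5 Agilent arrays, 4 on each of 4 slides. The deposited scanner files give red-channel intensity, and per the file headers the processed intensity had background and spatial trend removed by Agilent Feature Extraction, named as 11.5.1.1 in the submitters' processing notes. A deposited table of log2 values, near equal in their quantiles, served as an alternative, and how it was made is not given in the sources used here. Here the processed signal was taken to log2 and the 75th percentile of each array was subtracted. Probes well above background on at least 3 of 16 arrays were kept (30563, with 255 left out for a missing value), and the brightest probe stood for a gene. The 4 group means were fitted with limma 3.58.1 in R 4.3.3 over 24275 genes, all samples together, with 5 contrasts (the interaction included), two-sided, Benjamini-Hochberg adjustment and a threshold of 0.05. Constant or variable class came from file descriptions and positions. The labels do not say that samples of a group are separate animals, so p-values may measure technical spread. The members and gene lists were chosen with earlier results of these data known. Named were the constant regions, the 12 largest called differences per contrast at most, the 3 brightest variable genes per locus, the 3 of largest SD in each tumor group, and up to 8 called genes of each other list; from these the text gives a selection, and genes named in the array file, the only member below 0 and the near-identical pair were added after their values were seen. The number of arrays limits precision. On simulated data for tumor YFP+ against tumor YFP- over 24275 genes, the test recovered 30 of 62, 61 of 69 and 66 of 69 changes of log2 size 1, 2 and 3, with 12 false calls; in the real data the median SE was 0.27 over all genes and 0.77 over the immunoglobulin genes, so recovery among the latter may be lower. A gene of the B cell list is not reported here.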

Additional observations from a re-analysis of the deposited data

Results flagged for a closer look

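Of 122 sets of 5 tumor samples examined, 9 had 1 sample far from the other 4. Chance gives about 1 in 20 for unselected, independent sets. These sets were partly picked for large spread or large differences, so the 9 cannot be set against that rate. In tumor YFP+, the heavy segment at chr12:115884889-115884948 was lowest in mouse 23548 at -1.63 (nearest 1.87), the kappa segment at chr6:69714517-69714576 in mouse 23548 at 5.10 (nearest 5.92), and the heavy segment at chr12:115298056-115298115 in mouse 23547 at 6.23 (nearest 6.71). In tumor YFP-, gamma 2b was lowest in mouse 23547 at 0.96 (nearest 3.25), and a heavy segment at chr12:116886223-116886282 in mouse 23551 at 0.0927 (nearest 2.34). The highest samples stood apart for gamma 3 in mouse 23677 at -1.03 (nearest -5.15), for ENSMUST00000192499 in mouse 23548 at -4.76 (nearest -6.38, both below background), and for kappa segments at chr6:70265062-70265121 and chr6:70008779-70008838 in mouse 23677 at -0.37 (nearest -2.88) and -2.82 (nearest -6.32). Mouse 23677 thus had 3 of the 6 far values in tumor YFP-, all of them high.

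The YFP difference of ENSMUST00000103390 differed between tumor and normal pancreas by 8.69 on the log2 scale (SE 1.12, adjusted p = 0.00577 by limma), higher in 5 of 5 tumor YFP+ samples than in any other sample. It was below background in all tumor YFP- and normal YFP+ samples, so the size has no firm value, and the call was lost without mouse 23916. The gene passed the filter through tumor YFP+, so the call is not independent of the filter.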

How the results depend on the processing

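Over the alternatives run, no named member difference past the threshold reversed: of 3319 alternatives of 100 such differences, 217 were no longer past it. With normexp background correction, 123 genes were called higher in tumor YFP+ than in tumor YFP- and 6 in the interaction. A filter of 8 arrays above background left 152 members and removed ENSMUST00000103390, so this gene was not tested, and the interaction called 0 members and 0 of all genes. Quantile normalization and the deposited values each called 1 gene higher in normal YFP+. With array weights, 40 genes were higher and 1 lower in normal YFP+, 1 was lower in tumor YFP+ and 5 in tumor YFP- than in their normal groups, and the interaction called 18; calls over all 24275 genes rose as well, from 5 to 1157 in normal pancreas, from 2978 to 4489 and from 3912 to 9358 between tissues (YFP+, then YFP-) and from 24 to 350 in the interaction. With members named in the array file only (chosen after seeing the data), 3, 5 and 1 were higher in the tumor and both tissue comparisons, 0 were lower in tumor YFP- and 0 passed the interaction, and the medians were 0.21 (normal YFP+ minus YFP-), 1.51 (tumor YFP- minus normal YFP-) and 2.98 (interaction). With the probes not counted as members (also chosen afterwards), the interaction called 2. With the 9 genes missing 1 value kept (also chosen afterwards), 170 were tested.

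Leaving out 1 mouse or sample, calls of higher and lower ranged over 36 to 93 and 0 to 0 (tumor YFP+ minus YFP-), 0 to 24 and 0 to 0 (normal), 115 to 141 and 0 to 1 (tumor YFP+ minus normal YFP+), 68 to 90 and 0 to 2 (tumor YFP- minus normal YFP-) and 1 to 3 and 0 to 1 (interaction). The medians ranged over 2.96 to 3.32, 0.71 to 2.15, 4.48 to 5.80, 2.58 to 3.83 and 1.03 to 2.38 in the same order. The causes were not tested.

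The title numbers may pair samples. Deviations of same-numbered samples from their group means correlated across genes at 0.31, 0.22, 0.06, -0.19 and -0.29 for the tumor mice and 0.27, 0.14 and -0.02 for the normal mice (over the immunoglobulin genes alone at 0.08 to 0.47), so pairing was not borne out over all genes. With the title number as a replicate block, 89 genes were called higher in tumor YFP+ than in tumor YFP-, 0 in normal YFP+ and 1 in the interaction; the tissue comparisons lie between mice and could not be fitted. Signal near background limits the dim members: 84 of 163 were above background on every array.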
